A study of Homo sapiens with 12 samples.

Results

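The 8 genes described here encode the FOS, JUN and ATF3 proteins of the AP-1 family: FOS, FOSB, FOSL1, FOSL2, JUN, JUNB, JUND and ATF3. They were chosen by name and matched by Ensembl gene identifier in 2 count tables of 58051 genes, which gave 8 of 8 genes. All 8 passed the filter on low counts that left 27915 genes for testing. The samples were HCT116 cells, an established human colon carcinoma line, grown without serum for 48 h from 24 h after an siRNA was added. The siRNA was a control (siControl) or was directed against PFDN2 or PFDN5, which encode subunits of prefoldin, a chaperone for actin and tubulin. RNA was taken before serum or 90 min after serum was added back. This gave 6 groups of 2 libraries from 1 cell line, named here by siRNA and by before or after serum. The labels do not say whether the 2 libraries of a group came from separate cultures, so the tests measure the spread between libraries only.

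AP-1 is a dimer of basic leucine zipper proteins that binds the site TGACTCA. FOS proteins cannot pair with each other and bind DNA as partners of a JUN protein, whereas JUN proteins can also pair among themselves. FOS, FOSB, JUN and JUNB are textbook immediate early genes: serum activates kinases and the factor SRF, and transcription starts without new protein synthesis. FOSL1 and FOSL2 typically follow later, JUND is present in resting cells, and ATF3 is a stress and growth factor response gene that pairs with JUN proteins.

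Total gene-body counts, which are fragments anywhere between a gene's first and last base, ran from 59784425 to 136504590 per library. PFDN2 was at 7.55 and 8.49 CPM (gene-body counts per 1000000 of the scaled library total) in siPFDN2 before serum, against 11.5 and 11.2 in siControl. After serum PFDN2 was at 8.73 and 9.47 in siPFDN2, against 19.5 and 16.3 in siControl. In siPFDN5 PFDN2 was at 21.8 and 21.1 before serum and 23.1 and 28.7 after. PFDN5 was at 41.0 and 44.2 CPM in siPFDN5 before serum, against 68.9 and 76.8 in siControl. After serum it was at 67.5 and 68.6 in the libraries labelled siPFDN5 and at 67.9 and 74.0 in siControl. PFDN5 RNA was thus not lower there beyond the spread of the libraries. In edgeR's test described below, neither PFDN2 nor PFDN5 passed against siControl with either siRNA at either time. At most 0.00716% of all genes were called there. The siPFDN2 before-serum replicate 2 stood apart: the deviations of its genes followed their GC content with a Spearman rho of 0.69, against -0.28 to 0.13 in the other 11 libraries. Some results that rest on it are also given without it, and the others include it. Of 10 epithelial colon markers 6 were at 10 CPM or more in every library, and 2, LGALS4 and GPA33, stayed under 1 CPM in every library. Of 9 markers of other cell types 7 stayed under 1 CPM in every library. The remaining ones were VWF, at 0.80 to 1.74 CPM, and the fibroblast marker COL1A1, at 3.97 to 15.7 CPM.

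The regulatory letters of these genes are shown because 7 of the 8 rose together with serum. A RefSeq promoter window, 250 bases before to 50 after a start site on GRCh38.p14, was found for 7 of the 8 genes, with 2 windows for ATF3. The motifs searched, on both strands, were TGACG (the core of the site bound by ATF and CREB proteins), its full palindrome TGACGTCA, the JUN promoter variant TGACATCA, the AP-1 site TGACTCA, the TATA box TATAAA and the CArG box bound by SRF. TGACG is contained in TGACGTCA. For FOS, FOSB, JUNB and ATF3 the stretch printed ends just before the start of the gene in the Ensembl annotation, and for JUN, JUND and FOSL2 it is 30 bases around a match. All run 5′ to 3′ on the gene's strand, and capitals mark TGACG (or its reverse complement), TGACATCA, TGACTCA and TATAAA.
FOS, chr14:75278674-75278773, plus strand: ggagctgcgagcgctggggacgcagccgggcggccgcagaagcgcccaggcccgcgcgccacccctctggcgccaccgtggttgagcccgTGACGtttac
FOSB, chr19:45467895-45467994, plus strand: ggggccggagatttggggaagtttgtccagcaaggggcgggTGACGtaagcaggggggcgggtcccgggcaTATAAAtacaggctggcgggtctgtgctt
JUNB, chr19:12791336-12791485, plus strand: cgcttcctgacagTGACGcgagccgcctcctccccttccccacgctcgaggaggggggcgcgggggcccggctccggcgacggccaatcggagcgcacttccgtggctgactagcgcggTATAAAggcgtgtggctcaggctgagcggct
ATF3, chr1:212565234-212565333, plus strand: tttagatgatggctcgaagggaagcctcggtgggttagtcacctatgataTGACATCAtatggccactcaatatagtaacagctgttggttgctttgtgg
JUN, chr1:58784096-58784125, minus strand: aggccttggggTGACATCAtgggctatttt
JUND, chr19:18281804-18281833, minus strand: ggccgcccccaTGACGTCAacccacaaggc
FOSL2, chr2:28392851-28392880, plus strand: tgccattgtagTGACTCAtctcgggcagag
TGACG lay within the 250 bases before the start in 6 of the 7 genes with a window: FOS, FOSB, FOSL2, JUN, JUNB and JUND. It lay there in 21.2% of all 35116 windows. The exception was ATF3: neither of its windows held TGACG, and the first held TGACATCA 123 bases before its start. JUN held the same 8 letters 67 bases before its start, and 2.37% of all windows held them. FOS, FOSB and JUNB had TATAAA 33, 30 and 31 bases before the start, against 10.7% of all windows with that motif anywhere in the 250 bases. That of FOS lies past the printed stretch. The second ATF3 window also held it. Neither ATF3 window covers chr1:212608670, where the transcript ATF3-202 starts, so letters before that start were not searched. That transcript held 75.5% to 87.4% of the estimated ATF3 count before serum and 56.7% to 73.5% after, as described below. TGACGTCA was found in JUND and in 1.65% of all windows. TGACTCA was in none of the 7 genes before the start, with 4.2% of all windows, but lay 4 bases after that of FOSL2. These letters are matches only. The CArG box was in none of the 7 within the window, and in 1.16% of all windows. Letters further upstream than the window were not searched, so a CArG box there would be missed.

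Serum raised the RNA of 7 of the 8 genes with each of the 3 siRNAs: FOS, FOSB, FOSL1, FOSL2, JUN, JUNB and ATF3. JUND did not pass the test with any of them, and none of the 8 fell. Among all genes tested, 2.87% changed with serum under siControl, 3.26% under siPFDN2 and 12.2% under siPFDN5, and 2.47%, 2.06% and 5.72% rose. A gene was called where its adjusted p was under 0.05, by edgeR's quasi-likelihood test adjusted over the 27915 genes by the method of Benjamini and Hochberg. The median log2 fold change of the 8 genes was 2.92, 2.78 and 2.54 in siControl, siPFDN2 and siPFDN5, beside 0.01, -0.02 and -0.03 over all genes tested. In RNA from whole cultures, fewer responding cells and less RNA per cell cannot be told apart. Values below are CPM of gene-body counts for replicates 1 and 2 unless stated.

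FOSB, which encodes a FOS protein with a strong activation domain, had the largest fold change of the 8. In siControl its CPM went from 1.92 and 1.70 to 284 and 187. The siPFDN2 libraries went from 1.53 and 3.20 to 166 and 195, and the siPFDN5 libraries from 3.41 and 3.01 to 111 and 146. No library before serum came near any library after it. The fold change was 129 in siControl (log2 7.01, SE 0.38, adjusted p = 2.0e-06), and only 1 of the 27915 genes had a larger one. It was 75.2 in siPFDN2 (log2 6.23, SE 0.37, adjusted p = 4.5e-06; log2 6.86 without the library that stood apart) and 39.9 in siPFDN5 (log2 5.32, SE 0.35, adjusted p = 8.4e-06).

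FOS, the partner of JUN in the classical AP-1 dimer, has a transcript known to appear and decay early after serum. In siControl its CPM went from 7.17 and 5.83 to 68.2 and 35.5. In siPFDN2 it went from 4.31 and 5.97 to 32.3 and 42.7, and in siPFDN5 from 9.78 and 10.5 to 20.8 and 26.6. Levels after serum were above those before with each siRNA, but the siPFDN5 libraries started highest and ended lowest, and the 2 siControl libraries after serum differed widely. FOS rose 7.95-fold in siControl (log2 2.99, SE 0.31, adjusted p = 0.00025) and 7.26-fold in siPFDN2 (log2 2.86, SE 0.31, adjusted p = 0.00037). In siPFDN5 it rose 2.34-fold (log2 1.23, SE 0.29, adjusted p = 0.0261). That call was lost with exon counts (log2 1.10, adjusted p = 0.0737), and it was also lost without any single siPFDN5 library (adjusted p = 0.0888 to 0.185).

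FOSL1 and FOSL2 encode FRA-1 and FRA-2, FOS relatives that lack the activation domain of FOS. FOSL1 in siControl went from 21.4 and 20.6 CPM to 156 and 144. It was at 28.1 and 57.8 before and 144 and 147 after in siPFDN2, and at 28.3 and 29.9 before and 134 and 165 after in siPFDN5. Levels after serum lay between 134 and 165 in all 6 libraries and those before it between 20.6 and 57.8, the highest being in the siPFDN2 library that stood apart. FOSL1 rose 7.15-fold in siControl (log2 2.84 ± 0.28, adjusted p = 0.00018), 3.38-fold in siPFDN2 (log2 1.76 ± 0.27, adjusted p = 0.00465) and 5.13-fold in siPFDN5 (log2 2.36 ± 0.27, adjusted p = 0.00062), where ± gives the SE of the fit. Without the library that stood apart the siPFDN2 value of FOSL1 was 2.37. FOSL2 in siControl went from 18.6 and 24.8 CPM to 222 and 257. No FOSL2 level before serum overlapped one after it. In siPFDN2 it went from 21.1 and 33.0 to 209 and 191, and in siPFDN5 from 28.97 and 27.9 to 229 and 247. FOSL2 rose 11.1-fold in siControl (log2 3.47 ± 0.23, adjusted p = 8.2e-06), 7.39-fold in siPFDN2 (log2 2.88 ± 0.22, adjusted p = 3.5e-05) and 8.37-fold in siPFDN5 (log2 3.06 ± 0.23, adjusted p = 2.0e-05).

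JUN, the founding member of the family and a target of its own protein, rose with each of the 3 siRNAs. Its level went from 9.44 and 11.8 CPM to 68.9 and 67.6 in siControl and from 7.07 and 15.7 to 69.6 and 78.8 in siPFDN2. In siPFDN5 it went from 9.76 and 10.4 to 62.5 and 70.5. No level before serum reached one after it. The log2 fold changes were 2.68 (SE 0.30, adjusted p = 0.00042), 2.70 (SE 0.30, adjusted p = 0.00046) and 2.72 (SE 0.30, adjusted p = 0.00044). The siPFDN2 library that stood apart held the 15.7 CPM, and without it the siPFDN2 value was 3.39 (adjusted p = 8.5e-09). JUNB, which encodes a JUN protein with weaker activation than JUN, went from 26.6 and 25.1 CPM to 134 and 99.0 in siControl. It went from 26.2 and 52.1 to 106 and 128 in siPFDN2 and from 34.1 and 38.9 to 90.0 and 117 in siPFDN5. These groups did not overlap with any siRNA either. The JUNB log2 fold changes were 2.17 (SE 0.29, adjusted p = 0.00166), 1.58 (SE 0.29, adjusted p = 0.0133) and 1.505 (SE 0.29, adjusted p = 0.0122). JUNB has no intron, and exons of HOOK2 on the opposite strand touch its exon. Counting used no strand, so fragments of that stretch were counted for both genes. The JUNB call was lost in siPFDN2 without the after-serum replicate 2 (adjusted p = 0.109). In siPFDN5 it was lost without either before-serum library or the after-serum replicate 2 (adjusted p = 0.0649 to 0.132).

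JUND, the JUN protein of resting cells, went from 29.9 and 32.3 CPM to 69.1 and 67.0 in siControl. In siPFDN5 it was at 34.7 and 38.1 before and 58.5 and 66.9 after. The groups did not overlap in either, but the log2 fold changes of 1.13 (SE 0.32, adjusted p = 0.112) and 0.78 (SE 0.32, adjusted p = 0.126) did not pass the test. In siPFDN2 the library that stood apart held 73.3 CPM before serum and its replicate 28.3, against 62.8 and 72.8 after (log2 0.42, SE 0.32, adjusted p = 0.40). JUND had the highest GC content of the 8 genes, 69.7%, and ATF3 the lowest, 46.7%. Without that library JUND passed the test in siPFDN2 (log2 1.26, adjusted p = 1.9e-05), in siControl (log2 1.13, adjusted p = 2.7e-06) and in siPFDN5 (log2 0.79, adjusted p = 7.1e-05). The share of all genes called rose as well, to 4% in siPFDN2, 9.95% in siControl and 36.3% in siPFDN5. Without its replicate instead, JUND was also called in siControl (adjusted p = 2.8e-06) and siPFDN5 (adjusted p = 7.2e-05), with 9.79% and 36% of genes called. With the GC trend of each library removed it also passed in all 3, with log2 fold changes of 1.23, 1.22 and 0.82 in the same order, where 6.72%, 6.34% and 29.3% of genes were called. Without the library the other 7 genes were still called in siPFDN2, and their log2 fold changes ran from 2.16 (JUNB) to 6.86 (FOSB).

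ATF3, which can repress or activate the genes it binds, went from 10.6 and 10.8 CPM to 249 and 209 in siControl. It went from 8.53 and 7.07 to 203 and 234 in siPFDN2, and from 16.0 and 16.1 to 285 and 314 in siPFDN5. Replicates were close in every group, and siPFDN5 was the highest group at both times. ATF3 rose 21.4-fold in siControl (log2 4.42 ± 0.18, adjusted p = 1.2e-07), 27.9-fold in siPFDN2 (log2 4.80 ± 0.18, adjusted p = 8.7e-08) and 18.7-fold in siPFDN5 (log2 4.22 ± 0.17, adjusted p = 2.0e-07). Among all genes tested, 19 had a larger fold change in siControl.

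**Figure D1:**
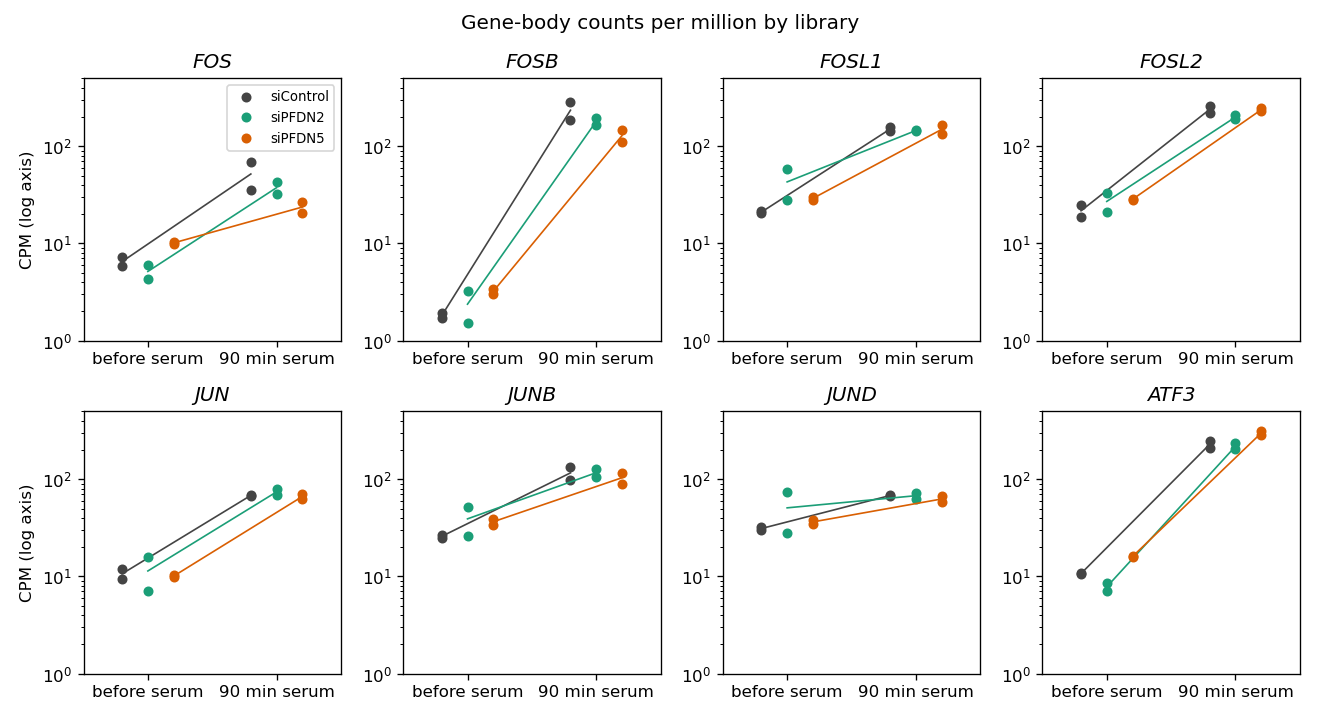
CPM of gene-body counts (log axis) for each of the 8 genes before and 90 min after serum, 1 point per library and a line between group means, coloured by siRNA. In every panel but that of JUND the points after serum lie above those before, and in the JUND panel 1 siPFDN2 library before serum, at 73.3 CPM, lies above all after-serum points.

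**Figure D2:**
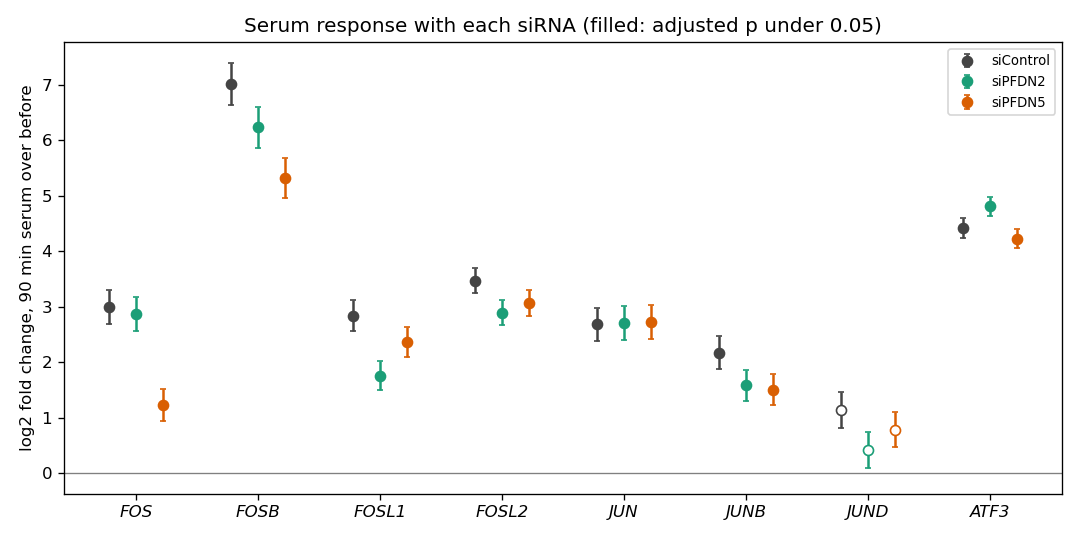
Log2 fold change from before to 90 min after serum for each gene and siRNA, with bars for the SE and filled points for adjusted p under 0.05. FOSB lies highest with each siRNA, from 5.32 to 7.01, all JUND points are open, and FOS in siPFDN5 lies at 1.23.

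Per length, the order of the 8 genes changed with serum. Exon CPM per kb of exon in siControl before serum were highest for JUND, at 16.7 ± 0.93 (SD, n = 2), JUNB at 14.2 ± 0.61 and FOSL1 at 9.63 ± 0.15. JUN was at 3.01 ± 0.48, FOSL2 at 2.91 ± 0.64, FOS at 2.01 ± 0.30, ATF3 at 1.85 ± 0.14 and FOSB at 0.30 ± 0.015. In that order JUN and FOSL2 overlapped, as did FOS and ATF3, and the other neighbours did not. After serum the order was FOSL1 at 74.5 ± 3.60, JUNB at 63.9 ± 13.5, ATF3 at 54.5 ± 6.38 and FOSB at 42.1 ± 12.2. JUND followed at 36.5 ± 0.77, FOSL2 at 31.7 ± 3.66, JUN at 19.3 ± 0.25 and FOS at 16.0 ± 7.14. JUND and FOSL2 did not overlap after serum, nor did FOSL2 and JUN, and the libraries of all other neighbours did. FOSB thus went from the lowest of the 8 to a mean between those of ATF3 and JUND, and FOS was last. The length used was that of all annotated exons together: 3238 bases for FOS, 4040 for ATF3 and 5553 for FOSB. FOS-201, ATF3-202 and FOSB-201, their transcripts with the largest estimates after serum, are 2158, 2033 and 3775 bases long. The order between genes therefore depends on the length used, and the order by transcript length was not computed.

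Intronic counts, the gene-body count less the exon count, include unspliced RNA. FOS, FOSB, FOSL1, FOSL2 and ATF3 have introns in the annotation, and JUN, JUNB and JUND are single-exon genes with none. The intron sequence of FOS covers only 219 bases, since a stretch that is exonic in any transcript counts as exon, and the gene had 0 or 1 intronic counts in every library beside 408 to 5718 exonic ones. A count of 0 allows an intronic share of up to 0.735% at the lowest of these depths and 0.0525% at the highest. With so few intronic bases, and fragments that touch an exon counted as exonic, these limits do not bound unspliced FOS RNA. FOSB has 1632 intronic bases, FOSL1 6638, FOSL2 17708 and ATF3 51404. A fragment that touches an exon counts as exonic.

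The intronic share of ATF3 and FOSB fell with serum, while that of FOSL2 in siControl and siPFDN2 did not pass the test. For ATF3 the share of gene-body counts in introns was 33.2% and 27.2% in siControl before serum and 4.42% and 3.55% after. It went from 38.4% and 27.7% to 4.07% and 2.86% in siPFDN2 and from 26.9% and 24.8% to 2.51% and 2.18% in siPFDN5. No before-serum share came below 24.8% and no after-serum share above 4.42%. The intronic counts of ATF3 were 326 and 314 before and 925 and 1000 after in siControl, while its exonic counts went from 657 and 841 to 19989 and 27188. ATF3 introns therefore gained counts too, by 1.51 on the log2 scale (SE 0.30, adjusted p = 0.00838) in siControl, where 5.71% of 19857 genes tested on intronic counts changed. The gain was 1.51 (SE 0.30, adjusted p = 0.0110) in siPFDN2 and 0.75 (SE 0.30, adjusted p = 0.0552) in siPFDN5, with 8.24% and 41.5% of genes changed.

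For FOSB the share was 10.1% and 5.52% before serum and 0.74% and 0.57% after in siControl. It was 7.59% and 8.86% before and 0.52% and 0.45% after in siPFDN2, and 7.94% and 8.87% before and 1.08% and 1.33% after in siPFDN5. These rest on 10 to 32 intronic counts per library before serum and 52 to 177 after, and FOSB introns gained counts by 3.28 (SE 0.46, adjusted p = 0.00083), 1.98 (SE 0.44, adjusted p = 0.0183) and 2.46 (SE 0.45, adjusted p = 0.00222) on the log2 scale. In siControl replicate 1 the exact binomial 95% interval, for counting error only, was 6.10% to 15.5% before serum and 0.64% to 0.86% after. FOSB lies inside ERCC1, on the opposite strand, with no exon of one touching an exon of the other. Without strand in the counting, intronic fragments of ERCC1 fall on FOSB as well, and what part they make up was not tested.

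FOSL1 had shares of 15.8% and 10.9% before serum and 7.06% and 5.83% after in siControl. They were 9.06% and 8.44% before and 6.78% and 4.196% after in siPFDN2, and 9.24% and 8.37% before and 3.11% and 2.60% after in siPFDN5. FOSL1 introns gained counts in siControl (log2 1.78, SE 0.34, adjusted p = 0.00744) and were at 1.09 (adjusted p = 0.0614) in siPFDN2 and 0.72 (adjusted p = 0.108) in siPFDN5. FOSL2, whose gene also overlaps FLJ31356 and AC104695.3, had 5.16% and 2.80% before and 6.18% and 4.57% after in siControl, so these groups overlapped. In siPFDN2 it had 4.46% and 3.44% before and 5.46% and 3.54% after, and in siPFDN5 4.73% and 4.04% before and 2.03% and 1.94% after. The introns of FOSL2 gained counts about as much as its exons in siControl, by 3.92 on the log2 scale (SE 0.32, adjusted p = 1.6e-05), and by 3.10 (SE 0.31, adjusted p = 0.00012) in siPFDN2 and 1.90 (SE 0.30, adjusted p = 0.00149) in siPFDN5.

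The change of introns relative to exons was tested for the 4 genes with enough counts of both kinds, among 17380 such genes, with each library as its own control. In siControl 2 of the 4 fell, ATF3 (log2 -3.39, SE 0.31, adjusted p = 0.00051) and FOSB (log2 -3.85, SE 0.39, adjusted p = 0.00103). FOSL1 at -1.16 (adjusted p = 0.110) and FOSL2 at 0.46 (adjusted p = 0.588) did not pass, where 0.978% of genes were called and 0.293% were called lower. In siPFDN2 the same pair fell, ATF3 by 3.797 (SE 0.31, adjusted p = 0.00023) and FOSB by 4.35 (SE 0.37, adjusted p = 0.00023), against 0.719% of genes called. In siPFDN5 all 4 were called lower, but so were 44% of genes, with 44.8% called in all. There ATF3 fell by 3.87 (SE 0.31, adjusted p = 0.00026), FOSB by 2.995 (SE 0.36, adjusted p = 0.00251), FOSL1 by 1.72 (SE 0.31, adjusted p = 0.00411) and FOSL2 by 1.19 (SE 0.35, adjusted p = 0.0186). The intronic share of the whole siPFDN5 libraries dropped from 22.8% and 25.9% before serum to 17.2% and 14.8% after, whereas the other 8 libraries lay between 15% and 20.9%. Scaled on introns and exons separately, FOSL2 was at -0.34 (adjusted p = 0.435) in siPFDN5, and ATF3 at -3.02 (adjusted p = 5.4e-05), FOSB at -2.10 (adjusted p = 0.00165) and FOSL1 at -0.88 (adjusted p = 0.0322). FOSL1 was called under that scaling in siControl as well (log2 -1.31, adjusted p = 0.00837). It called 21.3% of genes in siPFDN5 and 4.65% in siControl. The FOSB call was lost without siControl before-serum replicate 1 (adjusted p = 0.0683) and, in siPFDN2, without the library that stood apart (log2 -4.29, adjusted p = 0.0666).

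**Figure D3:**
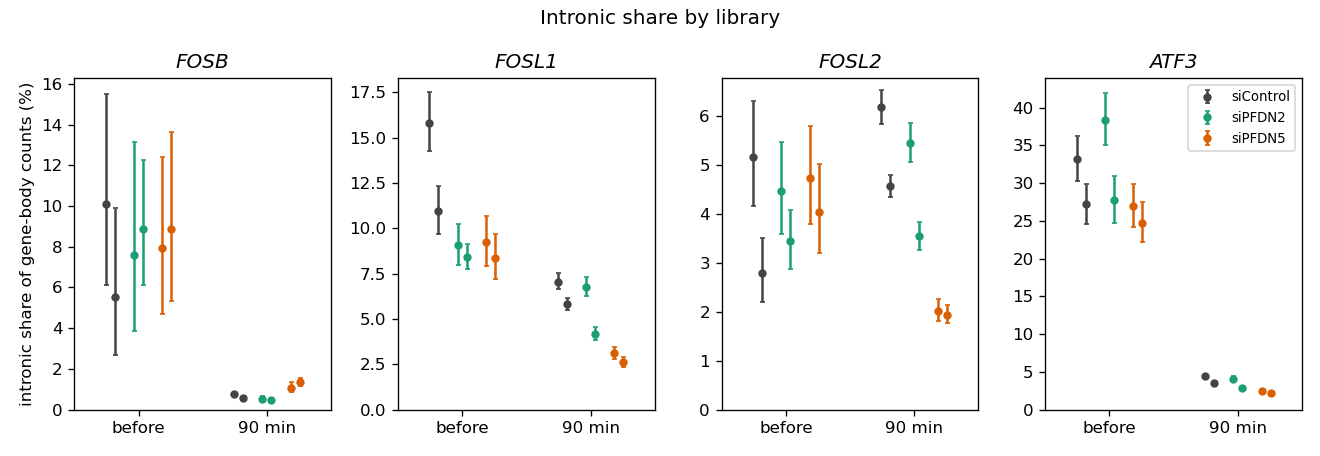
Share of gene-body counts that fell in introns (%) for FOSB, FOSL1, FOSL2 and ATF3, 1 point per library before and 90 min after serum, coloured by siRNA, with exact binomial 95% intervals that cover counting error only. ATF3 drops from at least 24.8% to at most 4.42% with every siRNA, and FOSL2 in siControl does not drop.

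Estimated transcript counts showed a change in which ATF3 transcripts were present after serum, a feature looked at after its values had been seen. The deposited transcript values are labelled TPM, but each library sums to far more than the 1000000 of that unit, so they were read as estimated counts. ATF3-202 starts in an exon at chr1:212608670-212608930 and ATF3-206 in a distal exon at chr1:212565334-212565483, just after the printed ATF3 stretch with TGACATCA. Both encode 181 amino acids. Before serum the estimate for ATF3-206 was under 1 in 5 libraries and 29.1 in siPFDN5 replicate 2, of 500 to 853 for the whole gene. After serum it was 4202 and 10534 in siControl, 2688 and 4032 in siPFDN2 and 5169 and 7275 in siPFDN5. That was 20.8% and 38.2%, 22.5% and 19.7%, and 25.8% and 27.4% of the ATF3 estimate. ATF3-202 made up 75.5% to 87.4% before serum and 56.7% to 73.5% after. The 2 transcripts share their later exons, so the split rests on reads over the first exons and carries no error here, and it was not tested. FOSB after serum was mostly FOSB-201, which encodes 338 amino acids, with 82.9% to 87.6% of the estimate. FOSB-211, whose 237 codons match the length of the truncated ΔFOSB protein, held 1.83% to 3.19%.

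**Figure D4:**
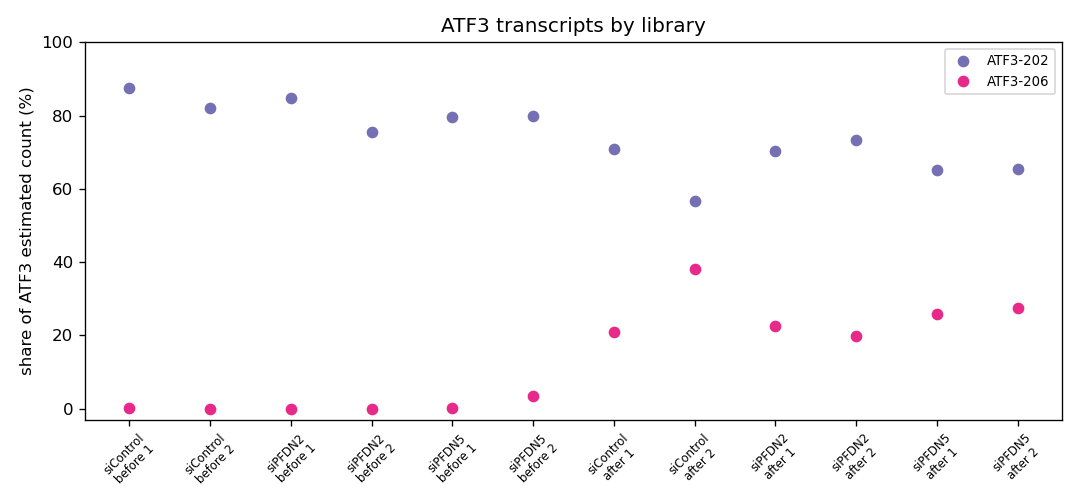
Share of the estimated ATF3 count (%) given to ATF3-202 and ATF3-206 in each library, ordered by time and siRNA. ATF3-206 lies at 0 to 3.54% in the 6 libraries before serum and between 19.7% and 38.2% in the 6 after it.

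On gene-body counts none of the 8 genes passed edgeR's quasi-likelihood test for a difference between either PFDN siRNA and siControl, before or after serum. The spread was estimated over all groups together, so the siPFDN2 before-serum library that stood apart also entered the siPFDN5 tests. Before serum 0 of 8 were called for siPFDN2, where 0% of all genes were, and 0 of 8 for siPFDN5, where 0.00716% were. At an unadjusted p under 0.05 these counts were 3 and 2 of 8, beside 11.3% and 12.3% of all genes, and DESeq2 called 0 in each, beside 0.126% and 1.31%. After serum 0 of 8 were called for siPFDN2 (0% of all genes) and 0 of 8 for siPFDN5 (0.00358%). At an unadjusted p under 0.05 there were 0 and 3, beside 6.26% and 21.6% of all genes. DESeq2 called 0 and 1, the 1 being FOS, beside 0.00206% and 7.35%. On intronic counts, FOSL1 (log2 -1.20, SE 0.34, adjusted p = 0.0194) and FOSL2 (log2 -1.43, SE 0.29, adjusted p = 0.0148) were called lower in siPFDN5 than in siControl after serum, where 34.5% of the genes tested on intronic counts were called. FOSB introns were at 0.00056 (adjusted p = 0.999) and ATF3 introns at -0.40 (adjusted p = 0.304) there.

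After serum, FOS and FOSB were lower in both siPFDN5 libraries than in both siControl libraries, as the CPM values above show. The log2 difference was -1.13 (SE 0.29, adjusted p = 0.0855) for FOS and -0.87 (SE 0.29, adjusted p = 0.131) for FOSB. For ATF3 it was 0.39 (SE 0.15, adjusted p = 0.177), with both siPFDN5 libraries above both siControl libraries. The other 5 genes lay between -0.17 (JUNB) and -0.01 (FOSL1 and FOSL2). With the GC trend of each library removed FOS (-1.08, adjusted p = 0.0276), FOSB (-0.84, adjusted p = 0.0284) and ATF3 (0.43, adjusted p = 0.0257) all passed, where 13.5% of all genes did. For siPFDN2 the 8 values lay between -0.47 (FOS) and 0.12 (JUN). PFDN5 RNA was not lowered in the siPFDN5 libraries after serum, and its part in these values was not tested.

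Before serum, ATF3 was at 16.0 and 16.1 CPM in siPFDN5, 10.6 and 10.8 in siControl and 8.53 and 7.07 in siPFDN2, with no overlap between the 3 groups. Against siControl the log2 differences were 0.58 (SE 0.15, adjusted p = 0.226) for siPFDN5 and -0.46 (SE 0.15, adjusted p = 0.442) for siPFDN2. Between siPFDN5 and siPFDN2 before serum ATF3 was the 1 gene of the 8 that was called, at 1.04 (SE 0.16, adjusted p = 0.0490), where 0.0788% of genes were called. Without the siPFDN2 library that stood apart it was 0.90 (adjusted p = 0.00698, with 3.16% of genes called), and without either siPFDN5 before-serum library the call was lost (adjusted p = 0.384 and 0.176). After serum 0 of 8 were called between the siPFDN5 and siPFDN2 libraries, where 0.0179% of all genes were. At an unadjusted p under 0.05 there were 2 of 8, beside 7.92% of all genes, and DESeq2 called 0, beside 0.45%. FOSL1 before serum was higher in siPFDN2 than in siControl by 1.03 (SE 0.26, adjusted p = 0.442) and by 0.42 (adjusted p = 0.392) without the library that stood apart.

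**Figure D5:**
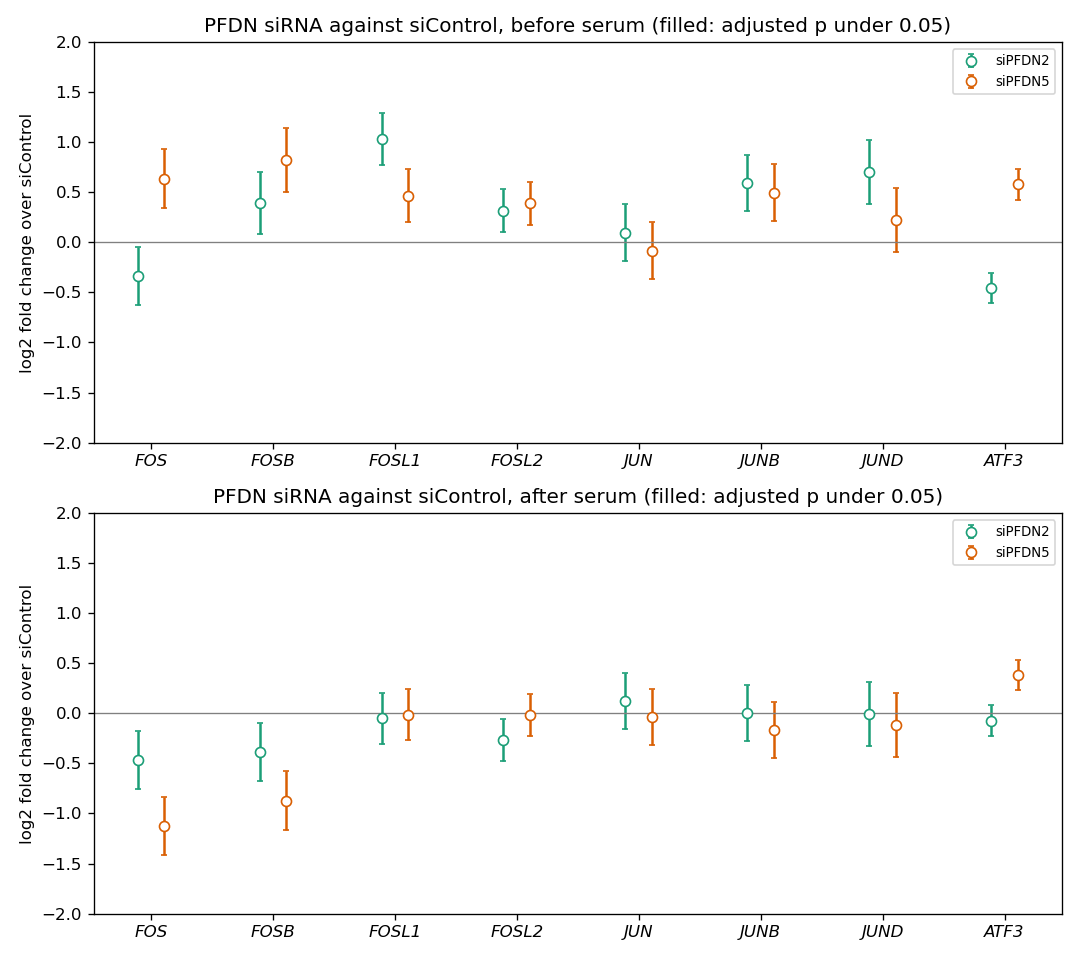
Log2 fold change of siPFDN2 and siPFDN5 over siControl for each gene, before serum (top) and 90 min after (bottom), with bars for the SE. All points are open, as no adjusted p was under 0.05, and FOS and FOSB in siPFDN5 after serum lie lowest, at -1.13 and -0.87.

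The serum response itself was compared between siRNAs as a difference of log2 fold changes, and on gene-body counts 0 of 8 genes passed for either PFDN siRNA. For siPFDN5 0% of all genes were called. The smallest adjusted p of any gene was 0.0960, a value that 754 genes shared, FOS and FOSB among them. More genes were called when either siPFDN2 before-serum library was left out, though that group is not in this comparison. The FOS response was smaller by 1.77 on the log2 scale in siPFDN5 than in siControl (difference -1.77, SE 0.41, adjusted p = 0.0960). The FOSB response was smaller by 1.69 (difference -1.69, SE 0.43, adjusted p = 0.0960). At an unadjusted p under 0.05 there were 2 of 8, beside 20.9% of all genes. DESeq2 called both (FOS adjusted p = 0.00309, FOSB adjusted p = 0.00650), beside 6.54% of all genes. With the GC trend removed both passed, each with an adjusted p of 0.0432, beside 8.69% of all genes. Both siControl libraries after serum weighed on these values. Without replicate 1 the difference was -1.21 (adjusted p = 0.322) for FOS and -1.35 for FOSB, and without replicate 2 it was -2.08 (adjusted p = 0.00704) and -1.88 (adjusted p = 0.0318), with 10.9% of genes called. The other 6 genes lay between -0.66 (JUNB) and 0.04 (JUN). On intronic counts the FOSL2 response was smaller in siPFDN5 (difference -2.01, SE 0.42, adjusted p = 0.0106), where 31.7% of genes were called, and those of FOSB, FOSL1 and ATF3 did not pass (-0.82, -1.06 and -0.76, adjusted p = 0.330, 0.109 and 0.184). For siPFDN2, where again 0% of genes were called, the values ran from -1.08 (FOSL1, SE 0.37, adjusted p = 0.582) to 0.38 (ATF3, SE 0.22, adjusted p = 0.582). There 1 of 8 had an unadjusted p under 0.05, beside 6.6% of all genes, and DESeq2 called 0, beside 0.00412%. Without the library that stood apart FOSL1 was at -0.47 and JUN, the highest, at 0.71 (adjusted p = 0.981 for each).

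Among 27 other bZIP genes and AP-1 partners, of which 25 were tested, 6 rose and 0 fell with serum in siControl, 6 and 0 in siPFDN2, and 8 and 1 in siPFDN5. Their median log2 fold change was 0.16, 0.23 and 0.41, beside the all-gene medians given above. All siPFDN2 values in this paragraph include the library that stood apart. MAFF, a small MAF protein without an activation domain, rose by 3.35 (SE 0.19, adjusted p = 2.4e-06), 3.59 (SE 0.19, adjusted p = 1.7e-06) and 3.26 (SE 0.19, adjusted p = 3.3e-06). CREB5, an ATF2 relative, rose by 2.79 in siControl, 2.78 in siPFDN2 and 1.19 in siPFDN5 (adjusted p = 0.0462), and CEBPD, a C/EBP factor, by 2.28, 1.66 and 2.19. CREM, a cAMP response factor, rose by 1.64, 1.83 and 1.80 in the same order. ATF7 fell by 0.66 in siPFDN5 (adjusted p = 0.0246) and was at 0.09 in siControl and -0.44 in siPFDN2, neither called. Of 26 upstream regulators, all tested, SRF was the 1 gene that rose with each siRNA, by 2.13 (SE 0.21, adjusted p = 0.00018), 1.48 (SE 0.20, adjusted p = 0.00231) and 2.35 (SE 0.21, adjusted p = 9.6e-05). In siPFDN5 the kinase MAP3K1 fell by 1.07 (adjusted p = 0.0109) and MRTFB, a partner of SRF, by 1.00 (adjusted p = 0.0117). They were at -0.66 and 0.13 in siControl and -0.31 and -0.10 in siPFDN2, none of them called. The median of this list was 0.11, 0.24 and -0.01. Of 28 genes known as AP-1 targets, 24 were tested, and 8, 8 and 10 rose and 0 fell, with medians of 0.37, 0.47 and 0.52. They included the chemokine CXCL8 (5.83, 6.20 and 5.83), the urokinase receptor PLAUR (2.27, 2.13 and 2.43) and the EGF receptor ligand AREG (2.01, 2.59 and 2.15), each called with all 3 siRNAs.

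The genes most like each member were those with the smallest root mean square difference of centred log2 CPM over the 12 libraries, among genes with a mean of at least 1 log2 CPM. For FOS they were ITGB1-DT (0.31), CREB5 (0.33) and LURAP1L-AS1 (0.36), and for FOSB CYR61 (0.32), AC025259.3 (0.36) and THBS1 (0.49). FOSL1 was nearest to CEBPD (0.20), SRF (0.27) and BHLHE40-AS1 (0.29), and FOSL2 to TNFAIP3 (0.18), MAFF (0.29) and CSRNP1 (0.30). JUN was nearest to CSRNP1 (0.20), GADD45B (0.22) and KLF6 (0.23), and JUNB to PPP1R15A, AC008649.2 (0.19 each) and MAP3K14 (0.20). ATF3 was nearest to NR4A2 (0.33), AC055854.1 (0.40) and EGR2 (0.43). CSRNP1 thus appears beside both FOSL2 and JUN, and the patterns of all these genes share the 12 libraries and their serum step. Several of the non-coding genes overlap other genes, and their counts without strand are uncertain.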

How the data were processed

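The members and gene lists were chosen with earlier results of these data known. The authors deposited fragment counts per gene, over gene bodies and over exons. Per the file headers they came from featureCounts 1.5.2 on Ensembl release 87 of GRCh38, needing both ends mapped, counting a fragment for every gene it overlaps, and without strand. HISAT2 and kallisto 0.43 are named in the submitters' processing notes, and the HISAT2 version is not used here. The deposited transcript values are labelled TPM but sum to far more than 1000000 per library, and were read as estimated counts. The 6 columns of each count table that match no sample label were not used.

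Gene-body counts of all 12 libraries were tested with edgeR 4.0.16 (filterByExpr, TMM, robust quasi-likelihood fit, prior count 2, Benjamini-Hochberg adjustment, adjusted p under 0.05), with 1 mean per group. CPM use the TMM-scaled totals. Introns against exons used both counts of a library side by side, with the library as a block. Intronic counts alone used the gene-body scaling. Estimated counts, rounded to whole numbers where tested, were summed per gene for an alternative. Named genes are the 8 members, up to 3 called genes per list and direction with the largest change, the 3 genes most like each called member, and PFDN2 and PFDN5; a named AP-1 target is not reported here. The fits were tested on simulated data with the same spread in every library, which held no library that stood apart as in the real data. Alternatives were other scalings, DESeq2 1.42.0, no filter, a replicate block, removal of each library's GC trend (lowess), other counts, fewer libraries and leaving out each library. Symbols and transcripts are from GENCODE 29.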

Additional observations from a re-analysis of the deposited data

How the results depend on the processing

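Serum calls of the 8 genes stayed between 5 and 8 of 8 under the alternatives that kept both libraries of each group, with 1 exception. With only the siPFDN2 libraries fitted, 2 of 8 were called in siPFDN2, beside 0.143% of all genes. In the other settings 1.95% to 6.34% of all genes were called in siControl, 2.37% to 13.1% in siPFDN2 and 4.22% to 54.5% in siPFDN5. In the other comparisons the number of the 8 genes called moved with the setting, as did the share of all genes called. Without the filter on low counts it was 3 for siPFDN2 against siControl before serum, 1 and 2 for siPFDN5 against siControl before and after, 4 between siPFDN5 and siPFDN2 before serum, and 1 and 2 for the differences of the response of siPFDN2 and siPFDN5, beside 2.23%, 2.13%, 5.42%, 11.5%, 1.37% and 4.98% of all genes. With the GC trend removed it was 3 for siPFDN5 against siControl after serum, 2 between siPFDN5 and siPFDN2 before serum and 2 for the difference in siPFDN5, beside 13.5%, 6.36% and 8.69%. DESeq2 called 1, 2 and 2 in these, beside 7.35%, 15.7% and 6.54%. With only the libraries compared, 5 were called for siPFDN5 against siControl before serum, 0 and 2 between siPFDN5 and siPFDN2 before and after, and 2 for the difference in siPFDN5, beside 19.5%, 0%, 22.7% and 14.9%. With library size as the only scaling, 0 were called between siPFDN5 and siPFDN2 before serum; that scaling moved the median of all genes by -0.20 in the siPFDN2 serum response. On genes that overlap no other, where FOSB and FOSL2 are not tested, 1, 1 and 2 genes had a lower intron change in siControl, siPFDN2 and siPFDN5. Of the 4432 genes tested there, 3.43%, 4.58% and 52.9% were called in either direction.

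The labels do not say whether the replicate numbers pair the libraries. Deviations between replicates correlated between groups from -0.32 to 0.59, which does not settle it. With the replicate block ATF3 was lost between siPFDN5 and siPFDN2 before serum (adjusted p = 0.0568, 0 of 8 called), and with block and GC trend together 3 were called for siPFDN5 against siControl after serum, beside 9.46% of all genes.

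Leaving out 1 library at a time gave 0 to 6 genes called for siPFDN2 against siControl before serum, 0 to 2 for siPFDN5 before and 0 to 2 after. It gave 0 to 4 and 0 to 1 between siPFDN5 and siPFDN2 before and after serum, 0 to 6 and 0 to 2 for the differences of siPFDN2 and siPFDN5, and 1 to 3, 1 to 2 and 2 to 4 for introns in siControl, siPFDN2 and siPFDN5. The 6 came without the siPFDN2 before-serum replicate 1, which leaves that group to the library that stood apart, and 41.8% and 37.7% of all genes were called there. A lone library was assumed to vary like the other groups.

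Directions changed with 1 library left out, or with the GC trend removed, in 8 results. Over the 12 left-out libraries JUND ran from -0.10 to 1.26 in the siPFDN2 serum response, from -0.14 to 1.22 for siPFDN2 against siControl before serum, from -1.003 to 0.36 for siPFDN5 against siPFDN2 before serum and from -1.23 to 0.13 for the difference in siPFDN2. With the GC trend removed JUND was at 0.28 and 0.010 in the last 2, and at 0.28 and 0.0035 with the replicate block as well. FOSB ran from -0.23 to 0.81 and FOSL2 from -0.040 to 0.60 for siPFDN2 against siControl before serum, FOSL1 from -0.99 to 0.042 for siPFDN5 against siPFDN2 before serum, and FOS from -0.79 to 0.079 for siPFDN2 against siControl after serum. A change of sign is listed where the value was past its SE or called. The cause of these changes was not tested. The lowest gene-body count of the 8 genes was 145, and FOSB introns had 10 to 32 counts before serum.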
